A study of Rattus norvegicus with 2 samples.

Results

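The genes described here are 3 chemokine genes, Cxcl1 (Entrez 81503), Cxcl12 (24772) and Ccl5 (81780), and Nfkbia (25493), which encodes the NF-kB inhibitor IkB-alpha, in H9c2 cells at control and high phosphate. H9c2 is a myoblast line from embryonic rat heart. All 4 genes were found in the files by their Entrez identifiers, among 7803 genes with a usable identifier, and all 4 were among the 4366 genes called measured, which had a mean of at least 1 FPKM (fragments mapped to a gene, scaled to its transcript length and the sequencing depth) over both libraries. The genes were chosen by their listed FPKM in these same libraries, with Cxcl1 and Nfkbia known to be lower and Cxcl12 and Ccl5 known to be higher at high phosphate, so the differences below are a description. The control culture had 0.9 mM phosphate and the high phosphate culture 2.5 mM, each for 12 h in DMEM without serum after growth in medium with serum. Each level had 1 library, from 1 cell line, so no difference has a replicate check and no test was possible. In bulk RNA, fewer cells that express a gene and less RNA of it per cell cannot be told apart.

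Chemokines are small secreted proteins that draw cells along a gradient through G protein-coupled receptors. NF-kB is a family of dimeric transcription factors held in the cytoplasm by IkB proteins. When the IKK kinase complex marks IkB-alpha for destruction, the dimers enter the nucleus and switch on inflammatory genes, among them Cxcl1 and Nfkbia itself, whose new protein ends the response. Cxcl1 draws neutrophils through Cxcr2. Cxcl12 acts through Cxcr4 and the scavenging receptor Ackr3 and is made without inflammation by stromal cells. Ccl5 draws T cells and monocytes, and its transcription is driven by interferon regulatory factors as well as by NF-kB.

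The promoters of 3 of the 4 genes are shown because they place the members' kappaB-like letters, the sequence that NF-kB dimers recognise, beside their opposite differences. They are RefSeq sequences of the build GRCr8, matched by gene identifier, from 250 bases before to 50 bases after the gene's start in that table, whereas the files were made on Rnor_6.0. Ccl5 had no entry in the promoter table. Capitals mark every match, on either strand, to the degenerate kappaB consensus or to the fixed forms GGGNNTTCC and GGNNTTTCC, which can overlap each other. Cxcl1 lies at chr14:17479272.0-17479571.0 on the minus strand, Nfkbia at chr6:78597023.0-78597322.0 on the minus strand and Cxcl12 at chr4:152060531.0-152060830.0 on the plus strand. Each is written 5′ to 3′ along its gene.
Cxcl1: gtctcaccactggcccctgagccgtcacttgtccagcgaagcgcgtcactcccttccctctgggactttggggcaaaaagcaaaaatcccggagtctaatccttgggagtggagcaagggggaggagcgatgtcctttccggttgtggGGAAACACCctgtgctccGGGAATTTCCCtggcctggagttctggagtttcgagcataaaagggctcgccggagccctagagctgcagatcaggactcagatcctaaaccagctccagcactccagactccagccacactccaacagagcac
Nfkbia: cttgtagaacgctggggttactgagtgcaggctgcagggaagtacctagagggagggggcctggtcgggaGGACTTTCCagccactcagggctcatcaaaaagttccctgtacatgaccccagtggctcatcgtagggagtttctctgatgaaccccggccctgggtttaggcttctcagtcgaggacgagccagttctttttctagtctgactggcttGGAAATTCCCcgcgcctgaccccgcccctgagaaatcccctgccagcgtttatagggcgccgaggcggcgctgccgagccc
Cxcl12: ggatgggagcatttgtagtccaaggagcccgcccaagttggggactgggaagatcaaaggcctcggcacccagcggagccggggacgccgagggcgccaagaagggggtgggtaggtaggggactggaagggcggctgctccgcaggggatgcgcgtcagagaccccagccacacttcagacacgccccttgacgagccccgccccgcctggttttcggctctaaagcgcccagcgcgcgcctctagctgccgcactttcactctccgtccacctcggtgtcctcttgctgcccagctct

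In the Cxcl1 window, the stretch GGGAATTTCCC at -84 to -74 matched the consensus on both strands, and GGAAACACC at -102 to -94 matched GGNNTTTCC on the opposite strand. In the Nfkbia window, GGAAATTCCC at -31 to -22 matched the consensus on the opposite strand, and GGACTTTCC at -180 to -172 matched GGNNTTTCC. The start used for Nfkbia in the table lies 235 bases inside the gene's 5′ end there, so its positions are relative to that start only. The Cxcl12 window held no match to any of the 3 forms. The consensus was found in 4.18% of the 33469 promoters of the table, GGNNTTTCC in 6.05% and GGGNNTTCC, which none of the 3 windows held, in 5.92%. Of the other motifs searched on both strands, GAAANNGAA (in 9.71% of promoters) and TATAAA (14.2%) each matched once in the Nfkbia window, at -55 to -47 and at 18 to 23. The core of the hypoxia element, ACGTG (19.3%), and the AP-1 form TGANTCA (7.33%) matched in none of the 3. Among the 3770 promoters of measured genes the consensus was found in 4.93%, GGNNTTTCC in 6.76% and GGGNNTTCC in 7.40%. There GAAANNGAA was found in 7.37%, TATAAA in 7.03%, ACGTG in 28.2% and TGANTCA in 5.57%. The GC content was 58.0% for Cxcl1, 59.7% for Nfkbia and 66.7% for Cxcl12, against a median of 51.7% over all promoters. These are matches of letters, not measured binding.

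The cells carried the muscle marker Des, the intermediate filament desmin, at 128.5 FPKM in the control and 153 FPKM at high phosphate. Myod1, a master regulator of myogenesis, had 6.11 and 1.59 FPKM, and 6 of the 11 listed myoblast markers were under 1 FPKM in both libraries, among them Myog and Myh3. The 11 summed to 153 and 171 FPKM, most of it Des. Listed FPKM summed to 307622 in the control and 346857 at high phosphate over 8039 entries, and the number of reads behind them is unknown. Leukocytes are a known source of Ccl5. Of 11 listed leukocyte markers, 6 were under 1 FPKM in both libraries and the pan-leukocyte gene Ptprc, Cd3g and Coro1a were at 0 in both. Their sum was 91.4 FPKM in the control and 110.0 FPKM at high phosphate, most of it the integrin gene Itgax with 81.8 and 99.98 FPKM. Of 7 listed endothelial markers, 6 were under 1 FPKM in both libraries, and the sums of 39.3 and 27.0 FPKM came almost wholly from Eng with 39.1 and 26.6 FPKM.

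Cxcl1 was the most abundant of the 4 genes in both libraries. Its control value was 98.1 FPKM and its high phosphate value 52.9 FPKM, 1.85-fold lower. Its log2 ratio was -0.88, where the log2 ratio is log2((high phosphate FPKM + 1)/(control FPKM + 1)) and the added 1 shrinks the difference of weakly expressed genes. Cxcl1 stood at rank 445 by FPKM among the 4366 measured genes in the control and at rank 863 at high phosphate, so it was an abundant transcript at both phosphate levels.

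Nfkbia was the second gene that was lower at high phosphate. The control library held it at 34.9 FPKM and the high phosphate library at 22.3 FPKM, 1.57-fold lower, with a log2 ratio of -0.62. Its rank among measured genes went from 1221 to 1658. Per unit length, the control library held 2.81 times as much Cxcl1 as Nfkbia RNA and the high phosphate library 2.37 times as much, so the level ratio of the 2 genes moved by 1.18-fold.

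Cxcl12 was the least abundant of the 4 genes and had the largest ratio of listed values. Its listed values were 1.93 FPKM (control) and 4.61 FPKM (high phosphate), 2.39 times the control value, with a log2 ratio of 0.94. At these levels the added 1 weighs most, and without it the log2 ratio was 1.26. Fibroblast markers, genes of a stromal cell type that makes Cxcl12, were also mostly higher at high phosphate. Of their 8 measured members 6 were higher and 2 lower, with a median log2 ratio of 0.65 that was 0.52 after rescaling to the same sum and 0.27 over all listed members without the filter on low values. The 12 listed summed to 4069 and 4507 FPKM, and Pdgfra, a defining receptor, was at 0 in both libraries. Their part in the Cxcl12 difference was not tested. Among them the microfibril gene Mfap5 had the highest log2 ratio, 1.23, with 23.2 and 55.9 FPKM, and S100a4, the most abundant, the lowest, -0.02, with 3291 and 3249 FPKM.

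Ccl5 lay between Cxcl12 and Nfkbia in level. Its level was 5.91 FPKM with control and 10.8 FPKM with high phosphate, 1.83 times the control value, with a log2 ratio of 0.77. Ccl5 RNA was 3.06 times as abundant as Cxcl12 RNA per unit length in the control and 2.34 times at high phosphate. The order of the 4 genes by level, Cxcl1, Nfkbia, Ccl5 and Cxcl12, was the same in both libraries, and the range between the first and the last was narrower at high phosphate.

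**Figure D1:**
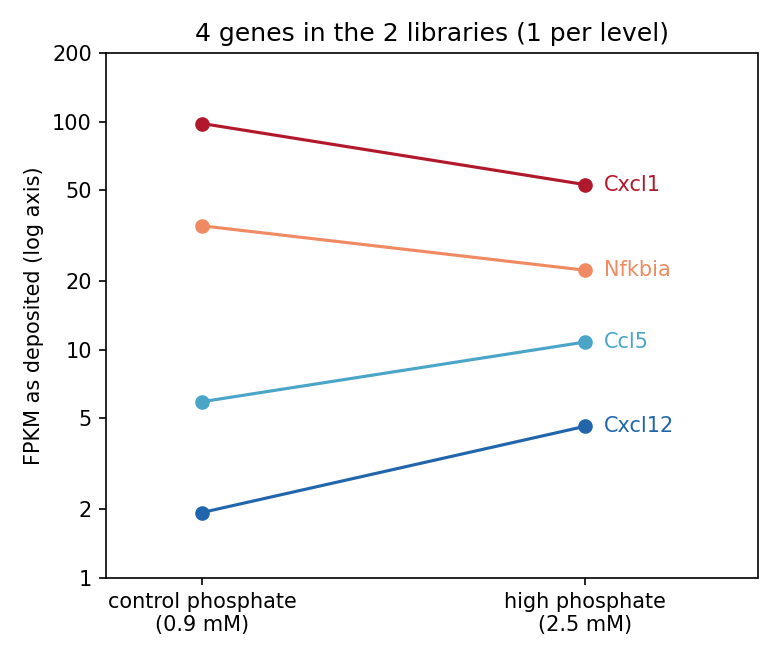
Listed FPKM on a log axis (vertical) of Cxcl1, Nfkbia, Ccl5 and Cxcl12 in the control (0.9 mM) and high phosphate (2.5 mM) library, 1 point per library, joined by gene. The lines of Cxcl1 (98.1 to 52.9) and Nfkbia (34.9 to 22.3) slope down and those of Ccl5 (5.91 to 10.8) and Cxcl12 (1.93 to 4.61) slope up, with no crossing.

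The rule set Cxcl1 and Nfkbia, classic NF-kB target genes, against Cxcl12 and Ccl5. The mean log2 ratio was -0.75 for Cxcl1 and Nfkbia and 0.85 for Cxcl12 and Ccl5, a difference of -1.61. Ratios between genes within a library do not depend on how the libraries were scaled. Per unit length, Cxcl1 RNA was 50.8 times as abundant as Cxcl12 RNA in the control and 11.5 times at high phosphate. Cxcl1 was 16.6 times as abundant as Ccl5 in the control and 4.90 times at high phosphate. Each of the 4 ratios of a gene of the first pair to a gene of the second was smaller at high phosphate. The largest shift was that of Cxcl1 to Cxcl12, by 4.43-fold, and the smallest that of Nfkbia to Ccl5, by 2.86-fold, from 5.91 to 2.06. The ratios inside the pairs shifted by 1.18-fold (Cxcl1 to Nfkbia) and 1.31-fold (Ccl5 to Cxcl12). Pairing genes known to be lower with genes known to be higher fixes that each of the 4 ratios between the pairs is smaller at high phosphate. The sizes of the shifts come from the values that chose the members and are a description.

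On the scale with the added 1, none of the 4 genes was 2-fold apart, and among all measured genes 1.76% were at least 2-fold higher and 0.87% at least 2-fold lower. All 4 were at least 1.5-fold apart, where 7.21% of measured genes were that much higher and 3.37% that much lower. With the high phosphate library rescaled to the FPKM sum of the control, the numbers at least 2-fold higher and lower were 54 and 56, in place of 77 and 38. At 1.5-fold they were 195 and 289, in place of 315 and 147. By sign, 2204 measured genes were higher and 2156 lower as deposited. The rescaling moved their median log2 ratio from 0.00 to -0.15, so most were then lower. The members were chosen on this contrast, so nothing is read from their counts. The spread of log2 ratios between the libraries was wider for genes of low level, so each member was ranked among measured genes of similar level, in 5 equal groups by mean FPKM. Cxcl1 was among the 3 lowest of 873 genes between 52.0 and 6374 FPKM, whose central 95% ran from -0.42 to 0.79. Nfkbia was among the 10 lowest of 873 genes between 20.5 and 52.0 FPKM, with a central 95% from -0.49 to 0.69. Cxcl12 and Ccl5 lay inside the central 95% of their groups. Cxcl12 was among the 35 highest of 874 genes between 1.00 and 3.62 FPKM (-1.02 to 1.18), and Ccl5 among the 42 highest of 873 genes between 3.62 and 9.32 FPKM (-0.77 to 0.97). These ranks use the values that chose the members and are given as a description.

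**Figure D2:**
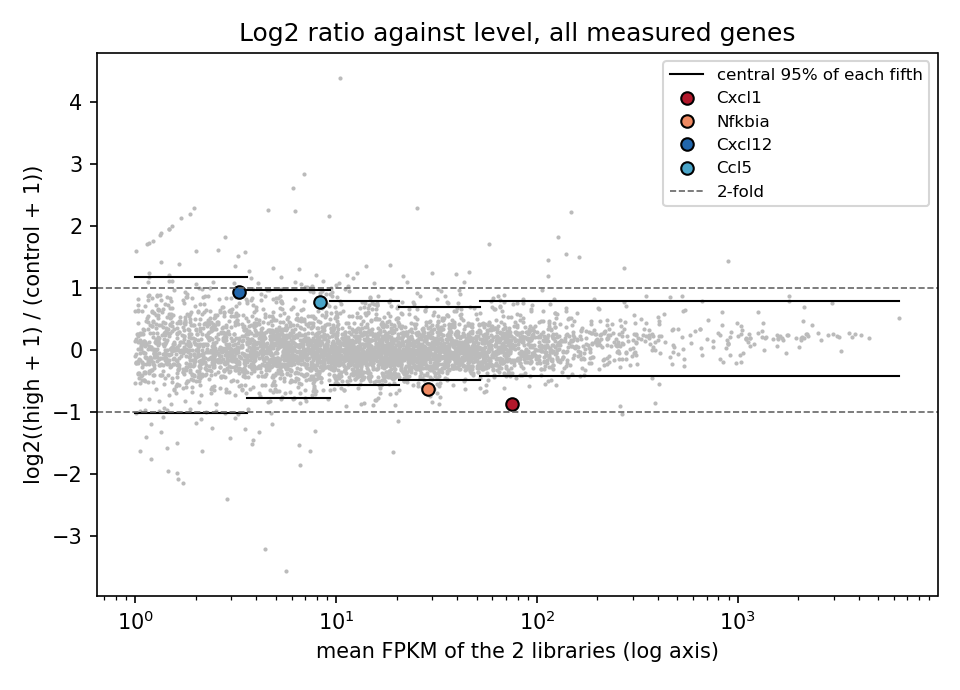
Log2 ratio of high over control phosphate, with 1 added to each FPKM (vertical), against the mean FPKM of the 2 libraries on a log axis (horizontal) for 4366 measured genes (grey points). Black bars mark the central 95% of each of 5 equal groups by level and dashed lines mark 2-fold. Cxcl1 and Nfkbia lie below their bars, and Cxcl12 and Ccl5 between theirs.

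The other chemokine ligands also lay on both sides. Of 38 ligand genes written for the list, 21 were listed and 10 were measured, of which 5 were higher and 5 lower at high phosphate, with a median log2 ratio of 0.08 beside 0.00 for all measured genes. Without the members 7 were measured, of which 3 were higher and 4 lower, with a median of -0.16. Among ligands of Cxcr2, which draw neutrophils, Cxcl3 was listed at 15.8 and 9.95 FPKM (log2 ratio -0.62), the nearest to Cxcl1 in direction and size, while Cxcl2 was listed at 0.08 and 0.38 FPKM and was not measured. Cxcl1 was 6.22 times as abundant as Cxcl3 in the control and 5.32 times at high phosphate. Cxcl1, Cxcl2 and Cxcl3 are close paralogs, and the treatment of reads shared between them is not stated. Among ligands that draw monocytes, Ccl2, the most abundant listed chemokine, had 187.8 and 139.6 FPKM (log2 ratio -0.42) and Ccl7 had 43.7 and 38.9 FPKM (-0.16).

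Among the interferon-induced ligands of Cxcr3, Cxcl10 was listed at 21.3 and 33.9 FPKM (log2 ratio 0.64) and Cxcl11 at 2.25 and 3.16 FPKM (0.36). The level of Ccl5 relative to Cxcl10 was 0.277 in the control and 0.319 at high phosphate. Ccl4, another CC chemokine, had 1.67 and 2.34 FPKM (0.32). Cxcl16, a membrane-bound ligand of Cxcr6, had 20.4 and 17.1 FPKM (-0.24). At least 1.5-fold apart besides the members were Cxcl10, higher, and Cxcl3, lower, beside 7.21% and 3.37% of all measured genes. With the rescaling to the same sum Cxcl10 was under 1.5-fold (log2 ratio 0.47) and Ccl2 was past it (-0.60).

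Summed over the 21 listed ligands, chemokine RNA came to 400.0 FPKM in the control and 315 FPKM at high phosphate, and to 302 and 262 FPKM without Cxcl1. Cxcl1 made up 24.5% of this sum in the control and 16.8% at high phosphate. The share of Ccl5 went from 1.48% to 3.43%, that of Cxcl12 from 0.483% to 1.46% and that of Cxcl10 from 5.34% to 10.7%. Ccl2 held the largest share in both, with 46.9% and 44.3%. These shares do not depend on the scaling of the libraries. Cxcl1, Ccl5 and Cxcl12 were chosen by these same FPKM values, so their shares are given as a description. The sum was lower at high phosphate, so a share can rise while the FPKM of its gene falls. That was the case for Ccl7 (10.9% to 12.3%) and Cxcl16 (5.09% to 5.42%).

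**Figure D3:**
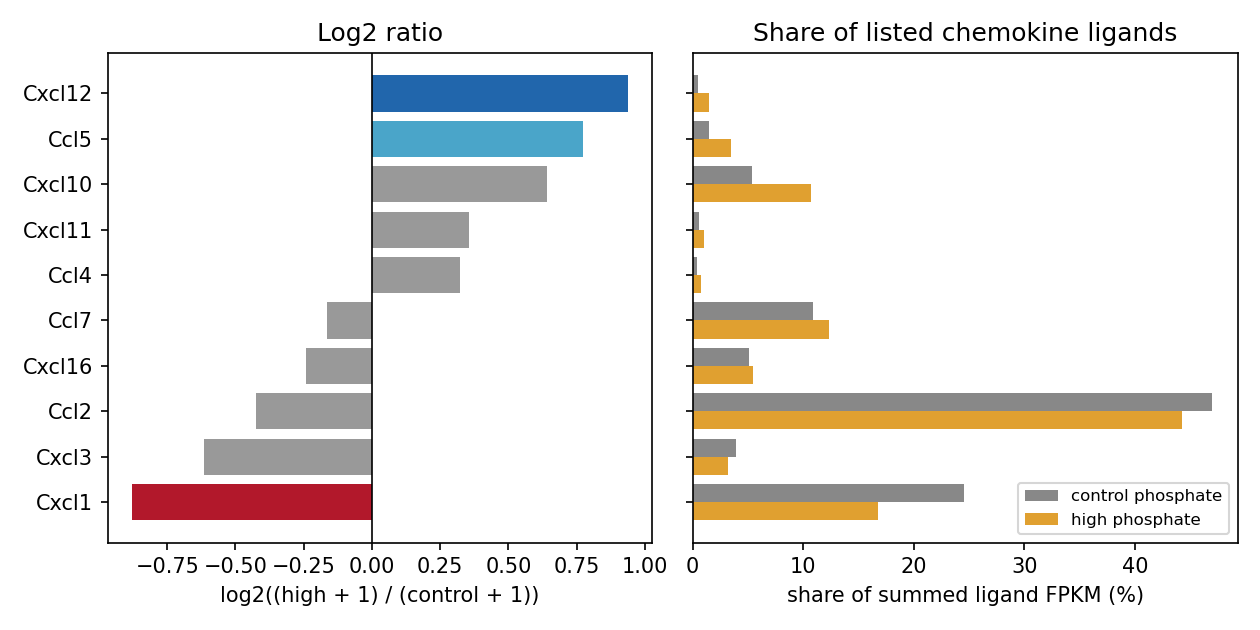
Left, log2 ratio of high over control phosphate with 1 added to each FPKM (horizontal) for the 10 measured chemokine ligands, with Cxcl12, Ccl5 and Cxcl1 coloured. Right, the share of each in the summed FPKM of the 21 listed ligands, in percent, in the control (grey) and high phosphate (yellow) library. Cxcl12 is at the top with 0.94, Cxcl1 at the bottom with -0.88, and the share of Cxcl1 is 24.5% in the control and 16.8% at high phosphate.

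The receptors for these ligands were almost all near 0. Of 12 listed chemokine receptors, 1 was measured, the Cxcl12 scavenger Ackr3, with 5.62 and 4.54 FPKM (log2 ratio -0.26). The other 11 had at most 0.76 FPKM in either library. They include the signalling receptors of the members, which are named here after their values were seen. The Cxcl1 receptors were listed at 0.01 and 0 FPKM (Cxcr2) and at 0 in both libraries (Cxcr1), the Cxcl12 receptor Cxcr4 at 0 and 0.03 FPKM, and the Ccl5 receptor Ccr1 at 0.04 and 0.02 FPKM. Dpp4, the protease that trims Cxcl12 and Ccl5, was at 0 in both. Of the 7 measured genes of receptors, ligand-binding proteoglycans and signalling partners, 4 were higher and 3 lower as deposited, and 2 higher and 5 lower after rescaling to the same sum. None was 1.5-fold apart, and the median log2 ratio was 0.03. The rescaled median was -0.14, beside -0.15 for all measured genes. Highest were the inhibitory G protein subunits Gnai3 with 55.8 and 70.6 FPKM (0.33) and Gnai2 with 190.3 and 227 FPKM (0.25), and the syndecan Sdc4 with 86.5 and 93.0 FPKM (0.10). Lowest were the receptor kinase Grk2 with 43.3 and 35.4 FPKM (-0.29), Ackr3, and the glypican Gpc1 with 126.3 and 120.7 FPKM (-0.07).

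Nfkbia had the lowest log2 ratio of the measured NF-kB subunit and IkB genes. Of 12 NF-kB subunit and IkB genes written for the list, 4 were listed. Rela, the p65 subunit that IkB-alpha binds, had 54.2 and 46.9 FPKM (log2 ratio -0.20), and Nfkbib, encoding IkB-beta, had 15.8 and 13.5 FPKM (-0.21). Nfkb2, the precursor of p52, was below the level for measured genes with 0.82 and 1.08 FPKM. All 3 measured genes, Nfkbia included, were lower, and their median was -0.21. Per unit length, Nfkbia RNA was 0.644 times as abundant as Rela RNA in the control and 0.475 times at high phosphate, and 2.21 and 1.65 times as abundant as Nfkbib RNA.

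Upstream of IkB-alpha, in the list of the IKK complex, its adaptors and the IkB ubiquitin ligase, 12 of 30 measured genes were higher and 18 lower, with a median of -0.04. The split was 4 higher and 26 lower after rescaling to the same sum. That rescaling moved the list median to -0.20 and the median of all measured genes to -0.15. None was at least 1.5-fold higher and 1 was at least 1.5-fold lower, the interleukin 1 and Toll-like receptor kinase Irak1, with 9.65 and 5.46 FPKM (-0.72), a share near the 3.37% of all measured genes. The rescaled count was 3 lower, beside 289 of all 4366 measured genes. The highest was Cul1, the ligase scaffold, with 1.58 and 2.63 FPKM (0.49). Among 9 measured cytokine and Toll-like receptors 3 were higher and 6 lower (median -0.03), from Il4r with 1.53 and 2.34 FPKM (0.40) to Tlr6 with 1.61 and 0.83 FPKM (-0.51).

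NF-kB-inducible genes as a group lay on both sides. Of 22 measured genes of that list, 13 were higher and 9 lower, with a median of 0.08. After rescaling to the same sum 10 were higher and 12 lower, with a median of -0.09 beside -0.15 for all measured genes. Without Cxcl1, Nfkbia and Ccl5, 12 of 19 were higher and 7 lower. Its 3 highest measured genes were the gelatinase Mmp9 with 0.99 and 2.47 FPKM (log2 ratio 0.80), Ccl5 and Cxcl10, and its 3 lowest Cxcl1, Nfkbia and Cxcl3. Lower still, but below the level for measured genes, were Bcl2l1 with 1.51 and 0.25 FPKM (-1.01) and Birc3 with 1.37 and 0.28 FPKM (-0.89). Both are named here after their values were seen. Without the filter on low values, 23 of the 38 listed genes were higher and 15 lower. At the higher end, Ccl5 and Cxcl10 are also interferon-induced. In the list of interferon regulatory factors and their targets, 20 of 28 measured genes were higher and 8 lower (median 0.34). The rescaled split was 18 higher and 10 lower (median 0.19). At least 1.5-fold higher were 6 as deposited and 2 rescaled, beside 7.21% of all measured genes as deposited and 195 of 4366 rescaled. None was as much lower under either, beside 3.37% of all measured genes as deposited and 289 of 4366 rescaled. It ran from Ifit1 with 22.2 and 44.1 FPKM (0.96) to the adaptor Mavs with 4.44 and 3.32 FPKM (-0.33).

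**Figure D4:**
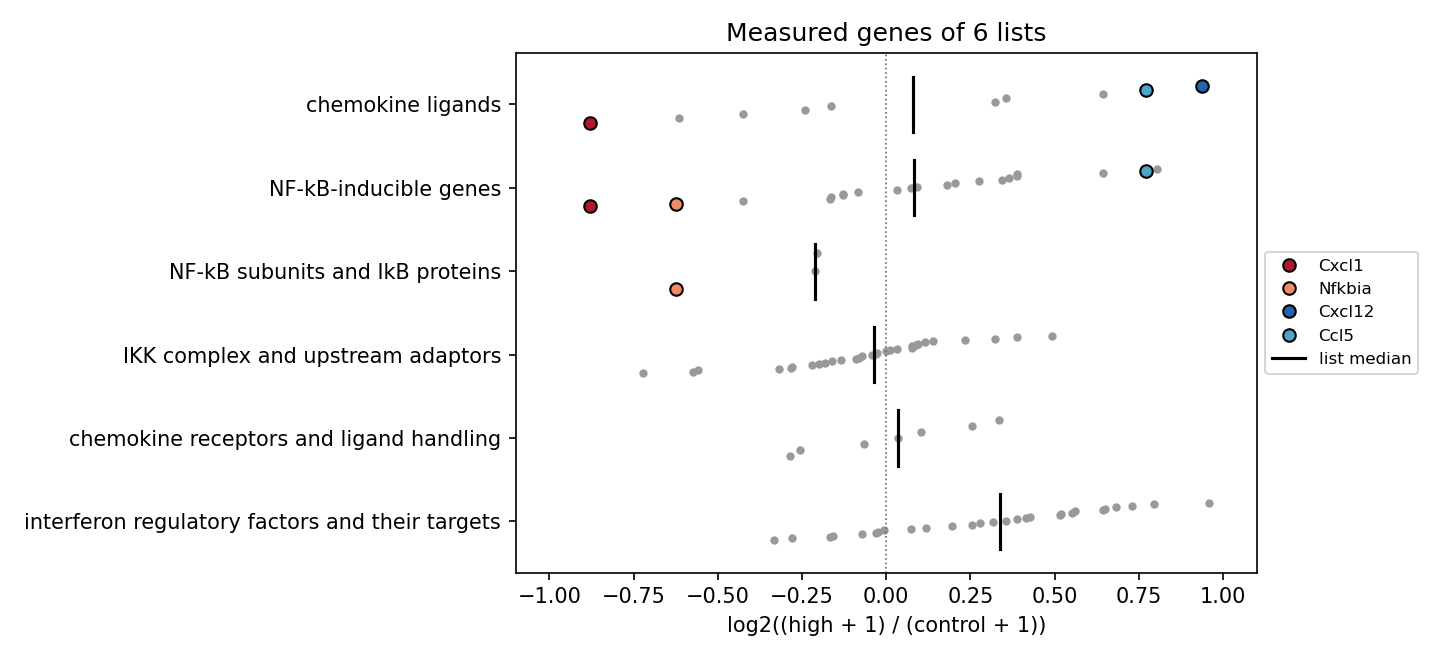
Log2 ratio of high over control phosphate with 1 added to each FPKM (horizontal) for each measured gene (point) of 6 gene lists (rows), with the list median as a black bar and the 4 members coloured. Cxcl1 is the lowest point of both lists that hold it, Nfkbia is the lowest of the NF-kB subunits and IkB proteins, Cxcl12 is the highest of the chemokine ligands, and the median of the NF-kB-inducible genes is 0.08.

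The kappaB consensus in the promoter window was found in genes on both sides. Among 14 measured NF-kB-inducible genes with an entry in the promoter table it matched in 5, beside 4.93% of the 3770 promoters of measured genes. These were Cxcl1 and Nfkbia, Cxcl10, Irf1 with 20.1 and 17.8 FPKM (log2 ratio -0.17) and Il6 with 8.60 and 11.6 FPKM (0.39), and the last 2 are named here after their values were seen. Over all 183 measured genes with a match, 96 were higher and 86 lower, with a median of 0.02. Of them 5.46% were at least 1.5-fold lower and 6.01% at least 1.5-fold higher, beside 3.12% and 7.12% of the 3426 measured genes with a promoter and no match. Cxcl1 and Nfkbia, each with a match, were chosen because they were lower, so nothing is read from the share that was lower. This grouping was made after the members' values were seen and was not tested.

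With 2 libraries, likeness between genes can only mean like values in both, measured as the Euclidean distance in log2(FPKM + 1). Nearest to Cxcl1 were the creatine transporter Slc6a8 with 83.7 and 54.1 FPKM (distance 0.23), Mfsd5 with 83.9 and 62.4 FPKM (0.32) and the chaperonin subunit Tcp1 with 90.7 and 65.7 FPKM (0.33). None of these 3 was as far apart between the libraries as Cxcl1. Nearest to Nfkbia were the cyclophilin Ppie with 37.0 and 21.6 FPKM (0.09), the ERK phosphatase Dusp5 with 33.5 and 20.9 FPKM (0.11) and Uap1l1 with 32.3 and 22.8 FPKM (0.11). Nearest to Cxcl12 were the interleukin 23 subunit Il23a with 2.01 and 4.74 FPKM (0.05), the actin regulator Wasf1 with 1.98 and 4.39 FPKM (0.06) and the transcription cofactor Lmo4 with 2.07 and 4.55 FPKM (0.07). Nearest to Ccl5 were Arhgef39 with 6.08 and 10.8 FPKM (0.04), the peroxiredoxin Prdx2 with 6.29 and 10.6 FPKM (0.08) and the AMP deaminase Ampd2 with 6.17 and 10.1 FPKM (0.11).

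Few genes beside the members on the chromosome were measured. In the order of the GRCr8 gene table, Cxcl3 is 4 entries from Cxcl1 in the CXC cluster, and Mthfd2l, a folate enzyme gene 2 entries to the other side, had 1.54 and 1.51 FPKM (log2 ratio -0.02). Within 5 entries of Nfkbia the measured gene was Prorp, the mitochondrial RNase P nuclease, with 5.30 and 4.38 FPKM (-0.23). Near Ccl5 it was the RNA-binding protein gene Taf15 with 26.9 and 24.4 FPKM (-0.14), while the chemokine genes Ccl9 and Ccl3 on its other side were listed at 0 in both libraries and at 0 and 0.29 FPKM. No entry within 5 of Cxcl12 was listed. No other entry of the table overlapped any of the 4 genes.

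An equal added value cannot turn a difference, and the rescaling factors, 0.887 to 0.997, were too near 1 to turn these. The direction of the 4 genes was therefore bound to stay the same under the settings tried. The side of the 2-fold threshold changed for Cxcl1 and Cxcl12. Rescaling to the same sum moved the median log2 ratio of all measured genes to -0.15. Under it the log2 ratio of Cxcl1 was -1.05, past 2-fold, and that of Cxcl12 0.80. Relative to the shifted median the 4 genes stood at -0.90 (Cxcl1), -0.64 (Nfkbia), 0.95 (Cxcl12) and 0.76 (Ccl5), close to their values as deposited. With 0.5 or 0.1 added in place of 1, Cxcl12 was past 2-fold with 1.07 and 1.21.

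**Figure D5:**
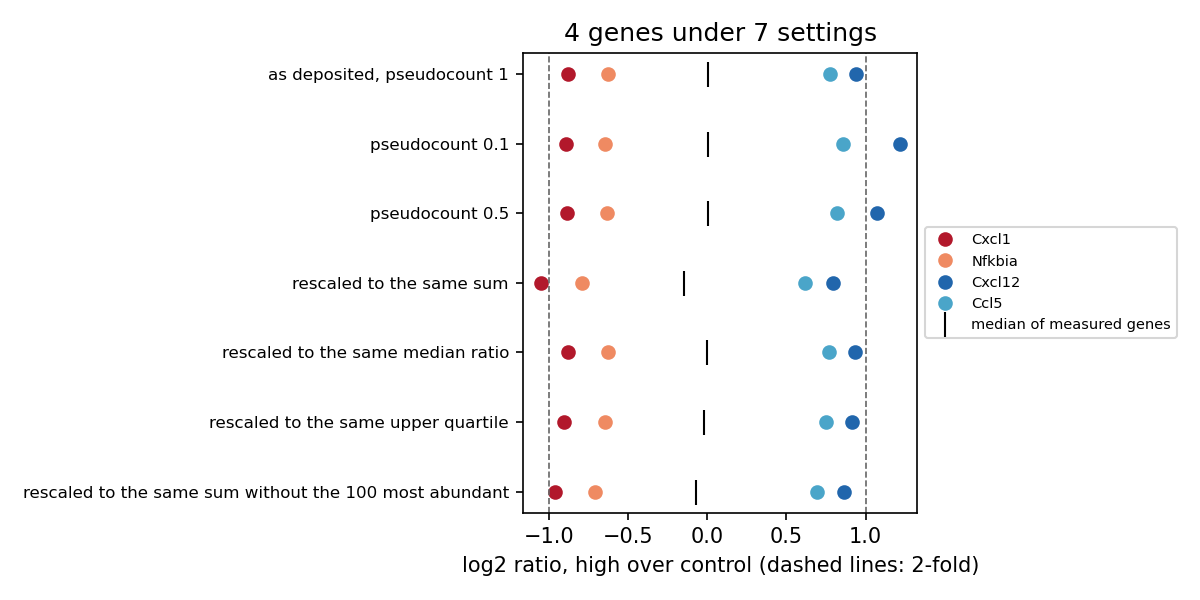
Log2 ratio of high over control phosphate (horizontal) of the 4 genes under 7 settings (rows), with the median of all measured genes as a black tick and 2-fold as dashed lines. Cxcl1 and Nfkbia are below 0 and Cxcl12 and Ccl5 above 0 in every row, and the difference between the pair means runs from -1.61 to -1.80.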

How the data were processed

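RNA sequencing of H9c2 cells gave 1 library per phosphate level. The authors deposited FPKM with 2 decimals, per the file headers. Tools named in the submitters' processing notes are TopHat2 2.1.1, Cufflinks 2.2.1, bcl2fastq and Cuffdiff, with the genome build Rnor_6.0. For the annotation, strand setting and scaling between libraries, nothing is given in the sources used here. A value near 0 can be a failed estimate. Depth is unknown, so no counting interval is given.

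Of 8039 entries, 236 without a usable identifier were left out. Symbols came from the NCBI gene table of GRCr8 (7746 matched). Log2 ratios used FPKM as deposited with 1 added, and measured genes had a mean of at least 1 FPKM. With 1 library per level there was no test. The members and the 14 gene lists were chosen with earlier results of these data known. Named genes are the members, the ends of each list (3 at each end for lists nearest to the members), measured ligands, abundant markers, the 3 genes most like each member and measured neighbours. Alternatives were 2 other pseudocounts, 4 rescalings of the high phosphate library to the control, other filters and a 1.5-fold threshold. The arithmetic of the ratios and counts was checked on made data with known folds and no noise. This check could not show how low values, scaling or noise affect the results. Python 3.11.15, numpy 2.4.6, pandas 2.3.3 and matplotlib 3.10.9 were used.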

Additional observations from a re-analysis of the deposited data

How the results depend on the processing

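The direction of all 4 genes was the same under the 2 other pseudocounts and the 4 rescalings, none of which could have turned it. For these genes, the pair difference and the counts, a value is named where it moved by more than 0.1 or crossed 2-fold, or where a count moved by more than 1.5 times. After rescaling to the same sum the log2 ratios were -1.05 for Cxcl1, -0.79 for Nfkbia, 0.80 for Cxcl12 and 0.61 for Ccl5, a shift that the rescaling itself gives to all genes. With a pseudocount of 0.1, Cxcl12 was at 1.21 and the difference between the pair means was -1.80, and with 0.5 Cxcl12 was at 1.07, since a smaller added value weighs less on low levels. Of measured genes, 77 were at least 2-fold higher and 38 lower. These counts were 151 and 62 with a pseudocount of 0.1, 41 and 8 among genes of at least 5 FPKM, and 315 and 147 at 1.5-fold. They were 54 and 56 after rescaling to the same sum.

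Several list medians turned sign. After rescaling to the same sum the medians were -0.064 for chemokine ligands, -0.14 for chemokine receptors and ligand handling, -0.086 for NF-kB-inducible genes, -0.052 for immediate early genes and -0.071 for myoblast markers. The median of all measured genes moved to -0.15 under it, and each of these medians stayed above that of all measured genes. Without the members the chemokine ligands were at -0.16. Without the filter on low values, cytokine and Toll-like receptors were at 0.058, endothelial markers at 0.028 (from -0.54 for Eng alone) and myoblast markers at -0.035. Medians that moved by more than 0.1 in the same direction after rescaling to the same sum were those of fibroblast markers (0.52), the interferon list (0.19), glucocorticoid targets (0.16), NF-kB subunits (-0.37), the IKK list (-0.20), cytokine receptors (-0.20), AU-rich decay factors (-0.22) and endothelial markers (-0.71). Without the filter, fibroblast markers were at 0.27 and leukocyte markers at 0. No paired analysis was possible because each phosphate level has 1 library.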

Other observations

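Immediate early genes, which respond within minutes to growth and stress signals, lay on both sides. Of 16 measured, 10 were higher and 6 lower, with a median log2 ratio of 0.12. After rescaling to the same sum 7 were higher and 9 lower, with a median of -0.05 beside -0.15 for all measured genes. The ERK phosphatases lay at opposite ends, Dusp6 with 52.5 and 82.1 FPKM (0.64) and Dusp5 with 33.5 and 20.9 FPKM (-0.66). Nfkbia is also a target of the glucocorticoid receptor. Of 17 measured genes of that list, 10 were higher and 7 lower (median 0.27), from the mTORC1 inhibitor Ddit4 with 9.83 and 27.1 FPKM (1.37) to the kinase Sgk1 with 42.3 and 22.7 FPKM (-0.87), with Nfkbia next above Sgk1.

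No measured factor that acts on short-lived mRNAs with AU-rich elements was 1.5-fold apart, beside 7.21% higher and 3.37% lower of all measured genes. Of the 7 measured factors, 1 was higher, 5 were lower and 1 was equal (median -0.05), from Zfp36l1 with 11.3 and 16.0 FPKM (0.47) to the stabilising factor Elavl1 with 24.7 and 22.2 FPKM (-0.15). Of 3 measured leukocyte markers 2 were higher and 1 lower (median 0.21), from Itgax (0.29) to the actin-bundling protein gene Lcp1 with 6.88 and 6.76 FPKM (-0.02). Eng was the single measured endothelial marker (-0.54). Of 5 measured myoblast markers 3 were higher and 2 lower (median 0.04), and 1 and 4 after rescaling to the same sum, from Des (0.25) to Myod1 (-1.46). Their rescaled median was -0.07, beside -0.15 for all measured genes.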
